A study of Homo sapiens with 12 samples.

Results

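The genes of catecholamine synthesis and storage examined here were named for their known roles, with earlier results of these data known, and are TH, DBH, DDC, GCH1, SLC18A1, SLC18A2, SLC6A2, CHGA, CHGB and MAOA, 10 of the 58174 genes listed for each cell line. Poly-A RNA-seq was performed in BE(2)-C, a clonal line of the neuroblastoma line SK-N-BE(2), and in Hep-G2, a line from a liver tumor classified as hepatoblastoma. Cells of each line were transfected either with control siRNA (siC) or with siRNAs directed against the RNA-binding protein IGF2BP1 (siI1) and harvested 72 h later. The siRNA concentration was higher for BE(2)-C than for Hep-G2, and the culture medium differed between the lines. Each of these 4 groups had 3 libraries, 12 in all, with 12852988 to 15721210 reads counted on genes per library. The question addressed was how these genes differed between siI1 and siC libraries of BE(2)-C, with their levels in Hep-G2 set beside them.

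Catecholamines are made from tyrosine, which TH converts to L-DOPA with the cofactor tetrahydrobiopterin, whose synthesis begins with GCH1. DDC turns L-DOPA into dopamine, the vesicular transporters SLC18A1 and SLC18A2 load it into secretory granules, and there DBH turns dopamine into noradrenaline. The granins CHGA and CHGB are major soluble proteins of these granules, SLC6A2 takes released noradrenaline back up, and MAOA breaks it down at the mitochondrial outer membrane, a set of functions that tumors of the sympathetic lineage such as neuroblastoma commonly retain.

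Sequences before the RefSeq starts (GRCh38.p14) were taken from a reference table, in which 5 of the 10 genes were matched and used, DBH, DDC, SLC18A2, CHGA and MAOA. Those of TH, GCH1, SLC18A1, SLC6A2 and CHGB were not analysed here. The 250 bases before the start are shown for CHGA and DBH, which moved in opposite directions in BE(2)-C, and for both RefSeq starts of DDC, the gene with the largest log2 fold change among the 5 tested in Hep-G2. The window of CHGA lies at chr14:92922900-92923149 (plus strand), that of DBH at chr9:133636113-133636362 (plus strand), and those of DDC at chr7:50565406-50565655 and chr7:50561072-50561321 (both minus strand). In the GENCODE v44 annotation the windows of CHGA and DBH and the upstream window of DDC touched no gene, whereas the second window of DDC lay in an intron of DDC itself. Of the windows not shown, that of SLC18A2 (chr10:117240864-117241113) reached 21 bases into an exon of SLC18A2 and overlapped SLC18A2-AS1 on the opposite strand, and that of MAOA (chrX:43656049-43656298) lay wholly inside MAOA and overlapped an exon of it. Each is printed 5′ to 3′ on the strand of the gene, and capitals mark the letters of the motifs searched.
CHGA: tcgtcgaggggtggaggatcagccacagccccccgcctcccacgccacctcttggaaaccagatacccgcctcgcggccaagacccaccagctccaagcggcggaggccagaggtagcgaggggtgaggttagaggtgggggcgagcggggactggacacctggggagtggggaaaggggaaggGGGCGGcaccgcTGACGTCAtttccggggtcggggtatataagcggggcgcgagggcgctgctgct
DBH: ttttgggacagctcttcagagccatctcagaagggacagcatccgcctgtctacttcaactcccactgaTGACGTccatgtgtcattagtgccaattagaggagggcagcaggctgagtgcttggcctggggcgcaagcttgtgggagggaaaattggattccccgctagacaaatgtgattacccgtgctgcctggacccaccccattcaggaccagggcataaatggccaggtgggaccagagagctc
DDC, upstream start: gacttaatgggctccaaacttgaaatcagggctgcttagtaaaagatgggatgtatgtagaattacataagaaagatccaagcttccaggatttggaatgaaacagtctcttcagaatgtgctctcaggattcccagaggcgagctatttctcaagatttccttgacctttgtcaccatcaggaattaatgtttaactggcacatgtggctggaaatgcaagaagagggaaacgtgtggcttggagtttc
DDC, downstream start: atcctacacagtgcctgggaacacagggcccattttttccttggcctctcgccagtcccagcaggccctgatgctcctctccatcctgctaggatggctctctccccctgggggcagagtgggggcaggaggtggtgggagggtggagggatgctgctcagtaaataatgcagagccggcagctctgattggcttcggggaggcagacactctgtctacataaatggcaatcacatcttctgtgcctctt

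The letters searched, on both strands, were the cAMP response element TGACGTCA, its core TGACGT (contained in the former), the GC box GGGCGG, the TATA box TATAAA and the HNF1-like letters GTTAAT. CHGA held TGACGTCA beginning 54 bases before its start, and SLC18A2 held the same letters 48 bases before its RefSeq start, or 27 before the start of the gene in GENCODE. Of all 35116 windows of this length, 1.65% held TGACGTCA. DBH held the core alone, 181 bases before its start, as did 7.10% of all windows with or without the full element. GGGCGG was present in the windows of CHGA, SLC18A2 and MAOA and in 42.6% of all windows. Neither window of DDC held any of these letters, and TATAAA (10.7% of all windows) and GTTAAT (6.23%) occurred in none of the 6 windows of the 5 genes. These matches describe letters, not binding.

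The knockdown was checked first. IGF2BP1 had FPKM values (reads per kilobase of gene, scaled to library size) of 21.3, 20.6 and 21.6 in the siC libraries of BE(2)-C and 4.85, 4.75 and 4.87 in the siI1 libraries. In Hep-G2 the values were 48.5, 46.6 and 50.8 with siC and 12.6, 10.7 and 10.7 with siI1, so that every library followed its label. The log2 fold changes were −2.11 (SE 0.05) and −2.10 (SE 0.08), with adjusted p-values of 1.48e-05 and 7.83e-06. All fold changes compare siI1 with siC on the log2(FPKM + 0.1) scale, which understates changes of genes with low expression, and were tested two-sided by limma with Benjamini-Hochberg adjustment over all tested genes, which required an FPKM of at least 0.1 in 3 libraries of the cell line. The paralog IGF2BP3 rose in BE(2)-C by 0.34 (adjusted p = 0.0042), while IGF2BP2 had at most 3 reads there.

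The markers of each line were then examined. The 9 noradrenergic transcription factors were all tested in BE(2)-C, with PHOX2A as the most abundant at a mean FPKM of 358 with siC, whereas in Hep-G2 HAND2, ISL1 and TFAP2B were listed at 0 in every library and only GATA2 passed the filter. The summed FPKM of this list was 1203, 1136 and 1134 in the siC and 935, 925 and 942 in the siI1 libraries of BE(2)-C, against 3.96 to 6.15 in Hep-G2. The 8 hepatocyte markers, led by ALB, summed to 7633, 7588 and 7563 with siC and 12096, 13618 and 13787 with siI1 in Hep-G2, and to at most 0.237 in BE(2)-C, where AFP, FGB and HNF4A had no read. Both lines thus carried the markers of their names. Among 8 mesenchymal neuroblastoma markers, the siC libraries of BE(2)-C summed to 49.6, 49.4 and 44.6 and the siI1 libraries to 51.5, 45.2 and 51.8, led by VIM (43.3 with siC), and NOTCH2, YAP1, WWTR1 and PRRX1 were below 0.1 throughout. Of the Schwann cell markers, SOX10 and ERBB3 were below 0.1 in every library of BE(2)-C. Replicate 1 of siI1 in Hep-G2 differed more from the others of its group than did replicates elsewhere (chi-square per gene of reads 13.8 and 14.3, against 1.98 between the others), and without it the log2 fold changes in Hep-G2 were 1.21 for DDC (adjusted p = 1.73e-05), −0.87 for CHGB (0.0429), −0.13 for GCH1 (0.22), 0.15 for MAOA (0.32) and 0.09 for DBH (0.89), each on the same side of the threshold as with it. In such bulk samples, fewer cells of a type and less RNA per cell cannot be told apart.

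Upon IGF2BP1 knockdown, 6 of the 10 catecholamine genes rose in BE(2)-C (GCH1, TH, SLC18A1, SLC6A2, CHGA and CHGB), 1 fell (DBH), and 3 did not pass the test (DDC, SLC18A2 and MAOA). Among all 18656 tested genes, 13.3% were called higher and 14.8% lower, and among the 14475 genes with a mean of at least 10 reads, a minimum chosen after seeing the data that all 10 genes met, 18.6% and 21.3%. The median log2 fold change of the 10 genes was 0.37, against 0.02 over all tested genes. The 3 siI1 libraries lay above all 3 siC libraries for 7 of the 10 genes (22.6% of all tested genes) and below them for 1 (22.4%), and the groups overlapped for SLC18A2 and MAOA.

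**Figure D1:**
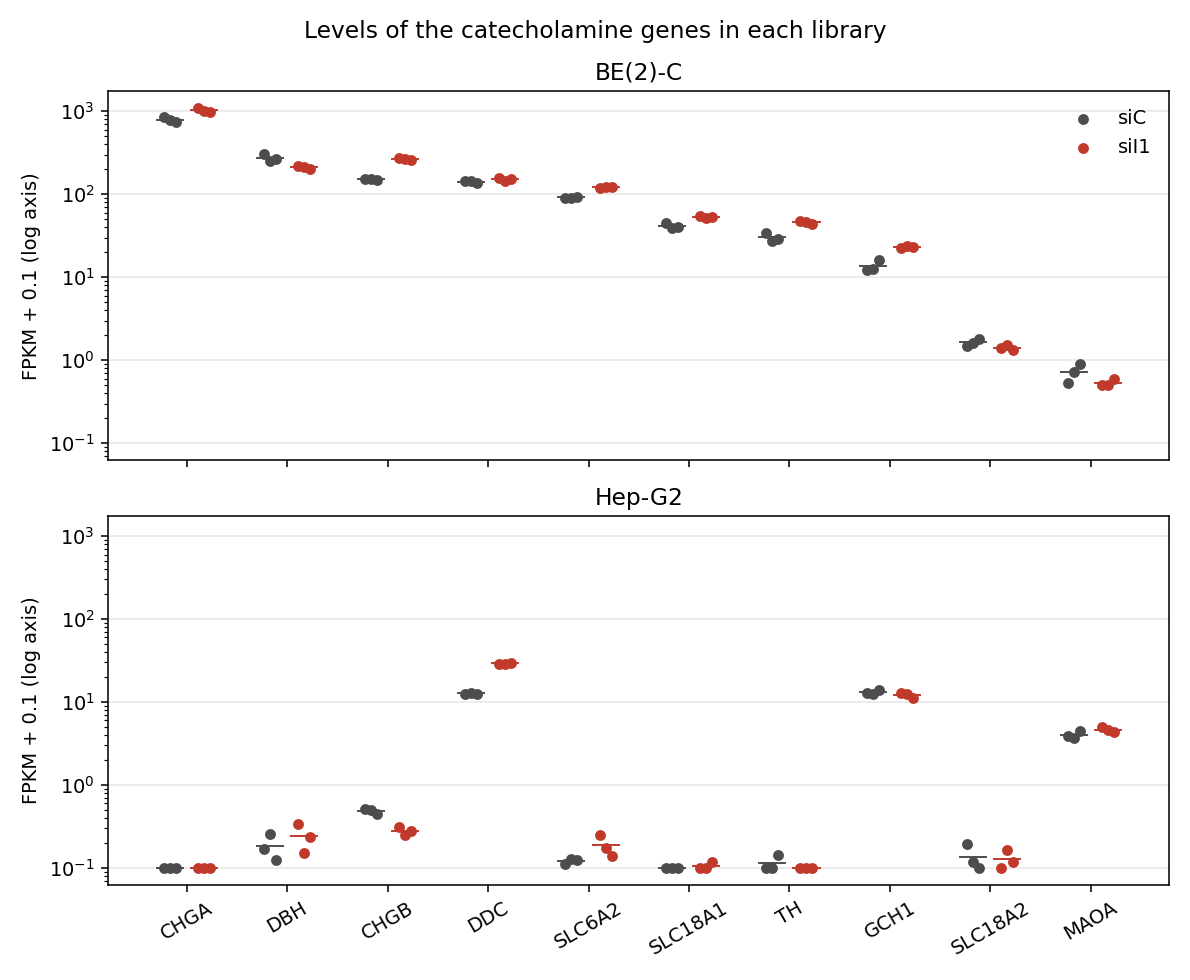
FPKM values of the 10 genes in each library of BE(2)-C (top) and Hep-G2 (bottom), plotted as FPKM + 0.1 on a log axis, with siC in grey, siI1 in red and lines at the group means. In BE(2)-C 8 genes lie above an FPKM of 10 in every library, whereas in Hep-G2 only DDC and GCH1 do; the tables of the lines were normalized separately.

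GCH1, which catalyzes the rate-limiting step of tetrahydrobiopterin synthesis, is encoded at chr14:54842008-54902826 (hg38, minus strand). It had FPKM values of 12.3, 12.3 and 15.9 in the siC libraries of BE(2)-C and 22.6, 23.4 and 22.9 in the siI1 libraries. Replicate 3 of siC was the highest of its group and still below every siI1 library. The log2 fold change was 0.77 (SE 0.10, adjusted p = 0.0022), a 1.71-fold higher level. In Hep-G2, GCH1 stood at a like FPKM of 12.7, 12.4 and 13.9 with siC and 12.8, 12.6 and 11.2 with siI1. There the groups overlapped and the log2 fold change was −0.09 (SE 0.08, adjusted p = 0.37). Over the alternatives this log2 fold change ran from −0.26 with equal sums of FPKM (adjusted p = 0.0684) to −0.00059 with median centring. The difference of the fold changes between the lines, tested over all 12 libraries with limma, was 0.87 (adjusted p = 4.47e-04). This difference was called for 3 of the 5 members tested in both lines (GCH1, DDC and CHGB) and for 40.2% of all 15362 such genes (52.1% with a mean of at least 10 reads).

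TH, the rate-limiting enzyme of the pathway, lies at chr11:2163929-2171815 on the minus strand. Its FPKM was 34.5, 27.0 and 28.9 in siC and 48.2, 46.6 and 43.2 in siI1 libraries in BE(2)-C. The groups did not overlap, although replicate 1 of siC stood apart from the others of its group. TH rose by 0.61 on the log2 scale (SE 0.09, adjusted p = 0.0037), or 1.53-fold. In Hep-G2, TH had 2 reads in a single siC library and none in the other libraries, so it was not tested.

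DDC, the decarboxylase that follows TH and also acts outside the nervous system, lies at chr7:50458436-50565405 on the minus strand. The siC libraries of BE(2)-C had FPKM values of 143, 143 and 137, and the siI1 libraries 159, 144 and 151. The siI1 libraries were all above the siC libraries, but the gap between the nearest pair was small, from 143 to 144. The log2 fold change of 0.10 (SE 0.05) did not pass the test (adjusted p = 0.18), and without replicate 1 of siI1 it was 0.067 (adjusted p = 0.40). In Hep-G2, by contrast, DDC had FPKM values of 12.5, 12.9 and 12.4 with siC and 29.0, 29.0 and 29.5 with siI1. These groups were widely separated, and DDC rose by 1.21 on the log2 scale (SE 0.05, adjusted p = 7.87e-06), or 2.31-fold. DDC was the 1 gene called higher of 5 tested in Hep-G2 and CHGB the 1 called lower, where 21.9% of all tested genes were called higher and 23% lower (28.6% and 30.7% with a mean of at least 10 reads). Among the 8 hepatocyte markers, whose sum was also higher with siI1, 5 were higher and 2 lower in the same comparison, and their part in the change of DDC was not tested. The fold changes of DDC differed between the lines by −1.10 (BE(2)-C minus Hep-G2, adjusted p = 4.84e-07). DDC-AS1, annotated on the opposite strand within DDC, had 106 to 165 reads per library in BE(2)-C and a log2 fold change of 0.13 (adjusted p = 0.49), which with a library left out ran from 0.039 without replicate 1 of siI1 to 0.24 without replicate 2 of siC.

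DBH, the granule enzyme that makes noradrenaline, lies at chr9:133636363-133659329 on the plus strand. The siC libraries of BE(2)-C had FPKM values of 307, 253 and 270, and the siI1 libraries 222, 213 and 203. Every siI1 library was below every siC library, with replicate 1 of siC the highest. DBH fell by 0.37 on the log2 scale (SE 0.08, adjusted p = 0.0128), to 0.772 of the siC level. The call was lost without replicate 3 of siI1, with a log2 fold change of −0.34 and an adjusted p of 0.0526, and adjusted p-values over all alternatives ran from 2.61e-06 to 0.0526. In Hep-G2, DBH had 1 to 9 reads per library and overlapping groups (log2 fold change 0.38, adjusted p = 0.54), with log2 fold changes of 0.073 to 0.74 over the alternatives. DBH-AS1, a long noncoding RNA on the opposite strand, had FPKM values of 15.1, 12.3 and 12.3 with siC and 13.2, 10.3 and 10.8 with siI1 in BE(2)-C, and its log2 fold change of −0.21 did not pass the test (adjusted p = 0.25). With a library left out it ran from −0.32 without replicate 1 of siI1 to −0.11 without replicate 1 of siC, and with a replicate block it was called lower (adjusted p = 0.0350). In Hep-G2, DBH-AS1 rose from 4.22, 5.18 and 3.49 to 22.0, 26.7 and 25.1, a log2 fold change of 2.50 (SE 0.15, adjusted p = 3.26e-05). The libraries were described as strand-specific, but the strand setting of the counting is not given in the sources used here, so reads of DBH and DBH-AS1, and of DDC and DDC-AS1, cannot be told apart with certainty.

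The opposite changes of DBH and TH were set against each other within each library of BE(2)-C, which removes any scaling of the library. The FPKM ratio of DBH to TH was 8.89, 9.35 and 9.33 in siC and 4.61, 4.58 and 4.71 in siI1 libraries. The ratio was thus lower in each siI1 library than in any siC library, with means of 9.19 ± 0.26 (SD, n = 3) and 4.63 ± 0.066 (SD, n = 3). The ratio of DDC to TH was 4.14, 5.30 and 4.74 in siC and 3.29, 3.10 and 3.50 in siI1 libraries. These ratios and those of the transporters and granins were chosen after the values of the genes were seen. They are therefore given as a description, with no test.

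**Figure D2:**
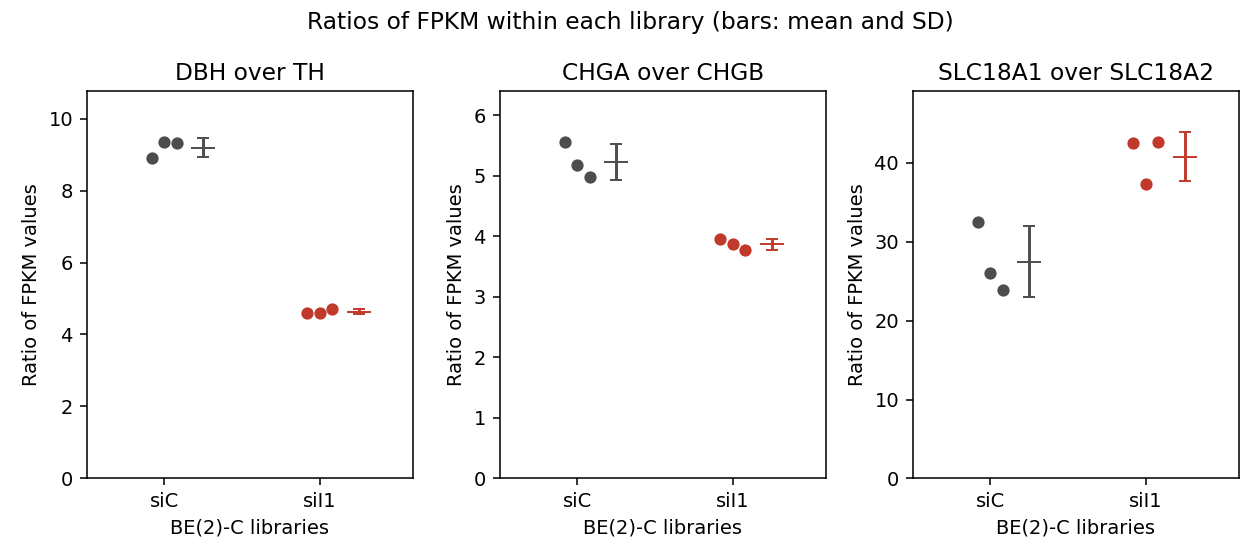
Ratio of the FPKM values of a pair of genes within each BE(2)-C library (points), with group mean and SD (bars), for DBH over TH, CHGA over CHGB and SLC18A1 over SLC18A2. The DBH to TH ratio lies between 8.89 and 9.35 with siC and between 4.58 and 4.71 with siI1.

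The 2 vesicular monoamine transporters were present at very different levels. SLC18A1, the form typical of adrenal chromaffin cells, had FPKM values of 45.5, 39.4 and 40.5 with siC and 55.3, 52.4 and 52.9 with siI1 in BE(2)-C. All siI1 libraries were above all siC libraries, and SLC18A1 rose by 0.36 (SE 0.06, adjusted p = 0.0061), or 1.28-fold. SLC18A2, the form typical of monoaminergic neurons (chr10:117241093-117279430, plus strand), had only 1.40, 1.51 and 1.70 with siC and 1.30, 1.41 and 1.24 with siI1 (71 to 98 reads). The groups overlapped and the log2 fold change of −0.21 (SE 0.13) did not pass the test (adjusted p = 0.28). This log2 fold change was −0.14 without replicate 3 of siC and −0.13 with a pseudocount of 1. The FPKM ratio of SLC18A1 to SLC18A2 was 32.5, 26.1 and 23.9 in siC and 42.5, 37.3 and 42.6 in siI1 libraries. The ratio was higher in every siI1 library than in any siC library. PDZD8, which overlaps the end of SLC18A2 on the opposite strand, had 493 to 549 reads and a log2 fold change of −0.03 (adjusted p = 0.81), whose sign turned with median centring (0.0086) and without replicate 1 of siI1 (0.0032). In Hep-G2, SLC18A1 had at most 1 read and SLC18A2 at most 6 reads per library, and neither was tested.

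SLC6A2, the noradrenaline transporter of the plasma membrane, lies at chr16:55655988-55707645 on the plus strand. Its FPKM was 91.2, 90.9 and 92.9 in siC and 121, 123 and 122 in siI1 libraries in BE(2)-C. Its libraries agreed closely within each group, and SLC6A2 rose by 0.41 (SE 0.04, adjusted p = 5.01e-04), or 1.33-fold. A transcript annotated on the same strand within SLC6A2 (AC136621.1, 1081 to 1639 reads) rose by 0.39 (adjusted p = 0.0063), and reads of the pair may be shared. In Hep-G2, SLC6A2 had 1, 2 and 2 reads with siC and 11, 6 and 3 with siI1 and was not tested.

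With all libraries included, the granins showed the highest level and the largest change of the set in BE(2)-C. CHGA, at chr14:92923150-92935285 on the plus strand, had FPKM values of 847, 782 and 740 with siC and 1090, 1020 and 991 with siI1 in BE(2)-C. The groups did not overlap, and CHGA rose by 0.39 (SE 0.07, adjusted p = 0.0079), or 1.31-fold. In rank among all genes by mean FPKM, CHGA moved from 28 with siC to 19 with siI1. In Hep-G2, CHGA had no read in any library, where 3 reads would have been an FPKM of at most 0.0723.

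CHGB, at chr20:5911510-5925353 on the plus strand, had FPKM values of 152, 151 and 149 with siC and 275, 263 and 263 with siI1. The siC libraries lay within a narrow band and all siI1 libraries lay far above it. CHGB rose by 0.82 (SE 0.04, adjusted p = 1.27e-04), or 1.77-fold, the largest log2 fold change of the 10 genes in BE(2)-C with all libraries. Without replicate 3 of siC, the log2 fold change of GCH1 was 0.90, above the highest value of CHGB over the alternatives (0.86). The FPKM ratio of CHGA to CHGB was 5.56, 5.17 and 4.97 in siC and 3.96, 3.88 and 3.78 in siI1 libraries. In Hep-G2, CHGB was near the limit of detection at an FPKM of 0.412, 0.404 and 0.344 with siC and 0.212, 0.151 and 0.181 with siI1 (10 to 29 reads). All siI1 libraries were below the siC libraries, and CHGB was called lower with a log2 fold change of −0.79 (SE 0.25, adjusted p = 0.0366). This call was lost without any one of 5 of the 6 libraries (the 3 siC libraries and replicates 2 and 3 of siI1), with adjusted p-values of 0.107, 0.0953, 0.0707, 0.0945 and 0.0825, and with median centring (0.0555), a replicate block (0.0799) or no filter (0.0861). Its log2 fold change ran from −1.07 to −0.23 over the alternatives, with −0.23 at a pseudocount of 1. The fold changes of CHGB differed between the lines by 1.62 (adjusted p = 1.76e-06), a difference of 1.05 to 1.89 over the alternatives.

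MAOA, at chrX:43654907-43746817 on the plus strand, was the lowest of the 10 genes in BE(2)-C, at 0.428, 0.621 and 0.789 with siC and 0.398, 0.410 and 0.495 with siI1 (32 to 61 reads). The groups overlapped, and the log2 fold change of −0.39 (SE 0.25) did not pass the test (adjusted p = 0.30). It was −0.59 without replicate 1 of siC, −0.21 without replicate 3 of siC and −0.16 with a pseudocount of 1. In Hep-G2, MAOA had FPKM values of 3.80, 3.60 and 4.44 with siC and 4.90, 4.51 and 4.21 with siI1. These groups overlapped as well, with a log2 fold change of 0.20 (SE 0.11, adjusted p = 0.18), which was 0.04 with equal sums of FPKM (adjusted p = 0.84). The difference between the lines was −0.59 for MAOA (adjusted p = 0.0863) and −0.75 for DBH (adjusted p = 0.16). The value for MAOA was −0.79 without replicate 1 of siC in BE(2)-C (adjusted p = 0.0123) and −0.33 with a pseudocount of 1 (adjusted p = 0.0702). The value for DBH depended on the libraries of Hep-G2, with −1.03 (adjusted p = 0.0450) without replicate 2 of siC and −1.06 (0.0340) without replicate 2 of siI1, but −0.46 (0.32) without replicate 1 of siI1 and −0.50 (0.34) without replicate 3 of siC. With a pseudocount of 1 it was −0.44 (0.0093).

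**Figure D3:**
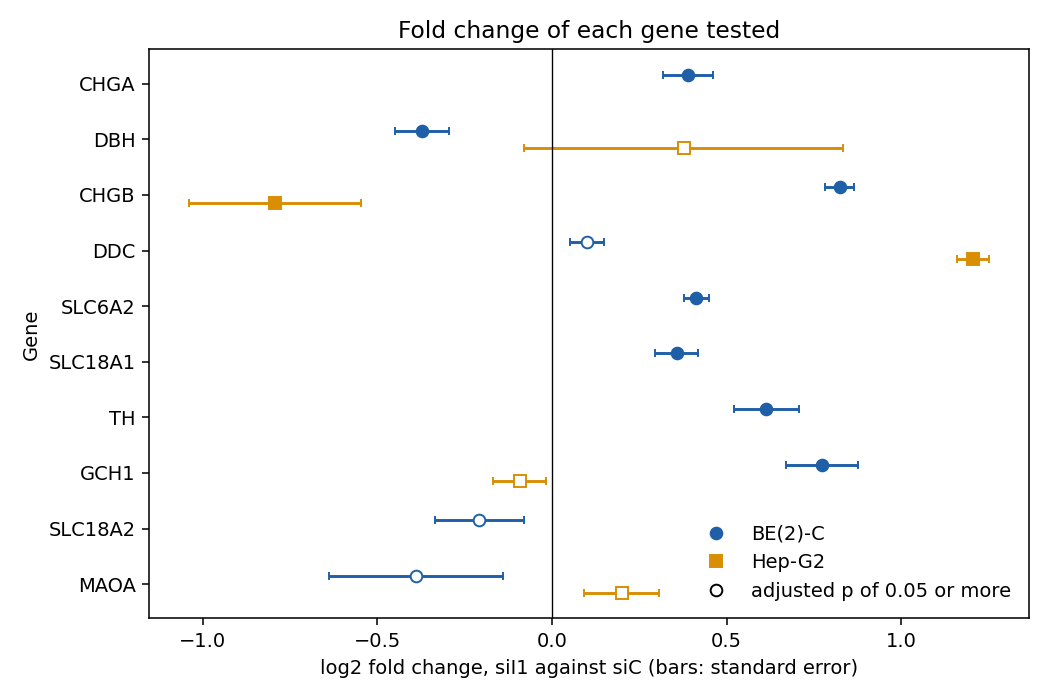
Log2 fold change of siI1 against siC (horizontal axis, bars are standard errors) for each of the 10 genes tested in BE(2)-C (circles) and the 5 tested in Hep-G2 (squares), with open symbols for adjusted p-values of 0.05 or more. CHGB lies at 0.82 in BE(2)-C and −0.79 in Hep-G2, and DDC at 0.10 and 1.21.

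FPKM divides the reads by a single listed length per gene, so close ranks of different genes also depend on that length. By this measure, the order in the siC libraries of BE(2)-C was CHGA (790), DBH (276), CHGB (151), DDC (141), SLC6A2 (91.6), SLC18A1 (41.8), TH (30.1), GCH1 (13.5), SLC18A2 (1.54) and MAOA (0.613). No pair of neighbours in this order overlapped between libraries. With siI1, CHGB (267) stood above DBH (213) and the order of the others was unchanged, again with no overlap of neighbours. The summed FPKM of the 10 genes was 1635, 1501 and 1477 in siC and 1995, 1889 and 1851 in siI1 libraries, most of it CHGA. In Hep-G2 with siC, the order began with GCH1 (13.0), DDC (12.6) and MAOA (3.95), where GCH1 and DDC overlapped, while with siI1 DDC (29.2) stood above GCH1 (12.2) without overlap. Levels of the lines are only set side by side here, since their tables were normalized separately. All orders were the same with equal sums of FPKM.

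Genes whose log2(FPKM + 0.1) values followed a member most closely over the 6 BE(2)-C libraries were listed by Pearson's r as a description. CHGB was followed by ADAMTS2, LETMD1 and CDH2 (each r = 0.999 or 0.998), and SLC6A2 by CNTN4, TP53BP1 and GDF11. For TH these were EEF1A2, CABIN1 and CCDC184, for GCH1 GTPBP10 and NFAM1, for CHGA SPG21, MYCBP and OST4, and for SLC18A1 EEF2, DBN1 and PWWP2B. DBH was followed by ESYT1 and SLC39A3, DDC by TRAPPC6A, EMC7 and ETFB, and SLC18A2 by SYNJ2BP, CYP2U1 and USP10. Values of r above 0.9 were shared by 1449 of 10035 genes for CHGB and 1509 for DBH, but by 147 for DDC and 171 for SLC18A2.

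The other genes of the pathway were examined by list in BE(2)-C, beside the 13.3% higher and 14.8% lower of all tested genes and their median of 0.02, and the called genes with the largest changes are named. Of 7 genes of tetrahydrobiopterin supply, 2 were lower and 5 did not pass the test (28.6% lower, median log2 fold change −0.16). SPR, which makes the final steps of the cofactor's synthesis, had FPKM values between 7.96 and 8.26 in the siC and between 4.67 and 4.97 in the siI1 libraries. SPR fell by 0.74 (adjusted p = 3.33e-04), opposite to GCH1 at the start of the same synthesis. QDPR, which recycles the cofactor and was the most abundant of the list, fell by 0.19 (adjusted p = 0.0223), a call lost without replicate 2 of siC, replicate 2 of siI1 or replicate 3 of siI1 (adjusted p = 0.0520, 0.0843 and 0.0723) and without the mean-variance trend (0.0905).

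Of 8 genes of other synthesis, uptake and breakdown, 6 were tested, 3 of them were lower and the others did not pass the test (median −0.31). The lower genes were AKR1A1 (−0.64, adjusted p = 3.65e-04), AKR1B1 (−0.38, adjusted p = 0.0045) and ALDH2 (−0.24, adjusted p = 0.0190), which act on the aldehydes left by monoamine oxidases. The call of ALDH2 was lost without replicate 2 of siC, replicate 2 of siI1 or replicate 3 of siI1 (adjusted p = 0.0554, 0.0707 and 0.0628) and without the trend (0.0547). CYB561, the granule membrane cytochrome that supplies electrons for DBH, was the most abundant gene of the list (mean FPKM 115 with siC), and its log2 fold change was 0.04 (adjusted p = 0.52). This was 0.025 and 0.074 without replicate 2 or 3 of siI1 and 0.083 with median centring, with no call.

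Of 12 genes of granule cargo and processing, 11 were tested, 2 were higher and 2 lower (18.2% each, near the shares of all tested genes, median 0.08). NPY, a peptide stored with noradrenaline, had FPKM values of 35.0, 28.2 and 33.8 with siC and 107, 119 and 99.6 with siI1. The groups were far apart, and NPY rose by 1.74 on the log2 scale (adjusted p = 1.52e-04). SCG5 rose by 1.21 (adjusted p = 1.39e-04), and VGF, the most abundant of this list, fell by 0.56 (adjusted p = 0.0073). SCG3 was called lower by a small amount (−0.13, adjusted p = 0.0427), a call that was lost without any one of the 6 libraries (adjusted p from 0.0649 to 0.158), with median centring (0.112), voom (0.0704), a replicate block (0.0575) or no filter (0.0560), and without the trend (0.164).

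Among 15 genes of regulated exocytosis, 14 were tested, 4 were higher and 4 lower (28.6% each, median −0.03). The priming factor CADPS rose by 1.32 (adjusted p = 3.18e-04), the granule GTPase RAB27B by 1.16 (adjusted p = 0.0026) and the SNARE protein SNAP25 by 0.80 (adjusted p = 1.67e-04). The calcium sensor SYT1 fell by 0.97 (adjusted p = 2.00e-04), from FPKM values of 25.9, 28.2 and 29.1 to 13.6, 13.9 and 14.9. CPLX2 was the most abundant gene of the list at a mean FPKM of 137 with siC, and its log2 fold change was −0.10 (adjusted p = 0.16), or −0.056 with median centring.

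The 17 subunits and accessory genes of the vesicular proton pump, which builds the gradient that drives SLC18A1 and SLC18A2, were all tested, with 3 higher (17.6%) and 5 lower (29.4%; median 0.03). The 4 largest changes that passed the test were all lower, and the 3 higher genes changed less. ATP6V1D fell by 0.92 (adjusted p = 5.34e-04), ATP6V1A by 0.74 (adjusted p = 0.0037), ATP6V0E2 by 0.37 (adjusted p = 0.0059) and ATP6V1C1 by 0.34 (adjusted p = 0.0116). The most abundant, ATP6V1F, fell by 0.27 (adjusted p = 0.0150), a call lost without replicate 2 or 3 of siI1 (adjusted p = 0.0634 and 0.0624) and without the trend (0.0558). Of 14 catecholamine receptors 6 were tested, with 1 higher and 1 lower (16.7% each), and the presynaptic receptors ADRA2C and ADRA2A moved in opposite directions. ADRA2C had FPKM values of 32.5, 29.7 and 30.1 with siC and 11.7, 12.9 and 14.3 with siI1 and fell by 1.24 (adjusted p = 2.00e-04), while ADRA2A rose by 0.51 (adjusted p = 0.0018).

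Of 12 genes of other transmitter systems only 2 were tested, both of the cholinergic gene locus and both lower. SLC18A3, the vesicular acetylcholine transporter, had FPKM values of 60.7, 56.9 and 56.9 with siC and 15.1, 17.8 and 18.4 with siI1. It fell by 1.76 on the log2 scale (adjusted p = 8.57e-05), a larger change than that of any of the 10 catecholamine genes. CHAT, at 18 to 54 reads per library, was lower by a log2 fold change of −0.86 (adjusted p = 0.0403), a call lost without replicate 1 or 3 of siC (adjusted p = 0.0965 and 0.114) and without replicate 2 or 3 of siI1 (0.114 and 0.111), with a replicate block (0.0594) and with no filter (0.0873).

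Of the 9 noradrenergic transcription factors, 5 were lower (55.6%, against 14.8% of all tested genes), 1 was higher (11.1%, against 13.3%) and 3 did not pass the test (median −0.40). HAND2 had FPKM values of 291, 290 and 274 with siC and 174, 172 and 168 with siI1. It fell by 0.73 (adjusted p = 1.69e-04), while INSM1 fell by 1.31 (adjusted p = 0.0107) and PHOX2A by 0.40 (adjusted p = 0.0042). TFAP2B rose by 1.05 (adjusted p = 1.52e-04), from 18.0, 20.3 and 19.9 to 40.4, 38.7 and 41.8. Among the mesenchymal markers, 4 of 8 were tested, and FN1 (from a mean FPKM of 0.364 to 1.86) and SNAI2 were called higher with log2 fold changes of 2.08 (adjusted p = 2.76e-04) and 0.40 (adjusted p = 0.0147, and 0.0616 as the adjusted p without replicate 3 of siI1). Whether these markers bear on the changes of the catecholamine genes was not tested.

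**Figure D4:**
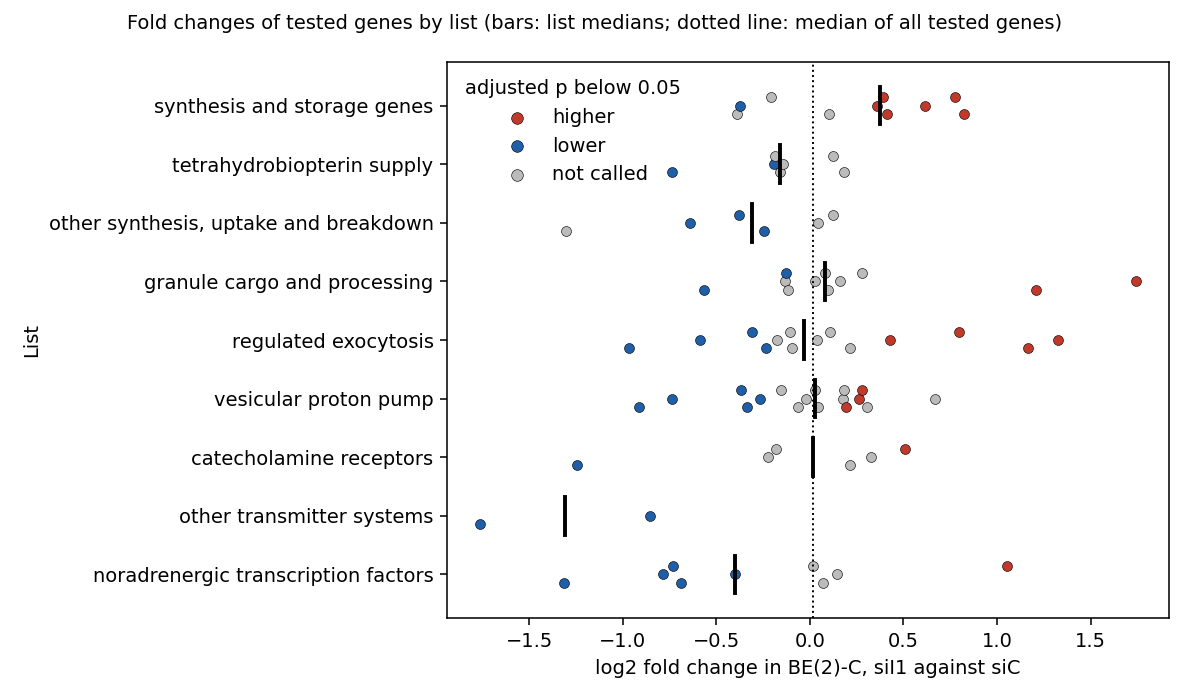
Log2 fold changes of the tested genes of each list in BE(2)-C (horizontal axis, siI1 against siC), colored by call, with black bars at list medians and a dotted line at the median of all tested genes (0.02). The synthesis and storage genes have a median of 0.37 and the noradrenergic transcription factors of −0.40.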

How the data were processed

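The authors clipped reads with cutadapt 1.14, aligned them to hg38 with HISAT2 2.1.0, counted them per gene with featureCounts 1.5.3 and deposited FPKM values per library, scaled by TMM within each cell line. The unit was taken from the values. Each value was multiplied by gene length and divided by the smallest nonzero result of its library, taken as 1 read. Of the nonzero values, 100% then gave a whole number (tolerance 0.01), and these reads are given per gene. Whole numbers would also arise with other constant scalings. Read as FPKM, the values implied library sizes of 12819601 to 15526251, beside 12852988 to 15721210 reads on genes. The authors' log2 fold changes, p-values and FDR columns were not used. A gene was tested when 3 or more libraries of a line reached an FPKM of 0.1, using limma 3.58.1 (R 4.3.3) on log2(FPKM + 0.1) with a mean-variance trend, Benjamini-Hochberg adjustment over all tested genes and a threshold of 0.05. On simulated data, this test made more false calls than the threshold implies, nearly all in genes with few reads, whereas with a mean of at least 10 reads required the share was near it. The 7 genes called in BE(2)-C had at least 466 reads in every library, and CHGB in Hep-G2 had 10 to 29. The read minimum was added as an alternative after seeing the data. Replicate libraries of a group differed beyond sampling noise (chi-square per gene 1.98 to 14.3), the most between replicate 1 of siI1 in Hep-G2 and the others of its group.

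The members and lists were chosen with earlier results of these data known. Named genes were the 10 genes, IGF2BP1 and its paralogs, up to 4 called genes of each list with the largest absolute log2 fold change in BE(2)-C and its most abundant gene with siC, overlapping genes, and the 3 protein-coding genes most correlated with each member at a mean FPKM of at least 1. Some genes that met these rules or belong to the marker lists are not reported here, though counts, medians and sums of the lists include them. Alternatives covered the pseudocount, filter, trend, scaling, threshold, voom on recovered reads, a replicate block and each library left out. Tables were handled with Python 3.11.15 and pandas 2.3.3, and plots drawn with Matplotlib 3.10.9.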

Additional observations from a re-analysis of the deposited data

Results flagged for a closer look

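The log2 fold change of several genes differed between BE(2)-C and Hep-G2 in limma's test of that difference over all 12 libraries, which was called for 40.2% of the genes tested in both lines. Given as BE(2)-C minus Hep-G2, the difference was 1.62 for CHGB, 0.87 for GCH1 and −1.10 for DDC. DBH-AS1, opposite DBH, differed by −2.71. Among the receptors and granule genes, the difference was −2.55 for ADRA2C, which fell in BE(2)-C and rose by 1.31 in Hep-G2, and 0.96 for VGF, which fell in both. For genes of breakdown and granule electron supply it was −0.39 for AKR1A1, −0.42 for AKR1B1, −1.08 for ALDH2 and −0.81 for CYB561. The proton pump genes differed by 0.63 for ATP6V1D, 0.38 for ATP6V1C1, −1.05 for ATP6V0E2 and −0.62 for ATP6V1F, and CPLX2 by −0.41. FN1 differed by 2.93, rising in BE(2)-C and falling in Hep-G2, and IGF2BP3 by 0.45. The sources of these differences were not tested, and siRNA concentration and culture medium also differed between the lines.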

How the results depend on the processing

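In BE(2)-C, the 6 genes called higher kept their direction and their call under all alternatives. Of the 169 values of the 10 genes under alternatives there, 167 kept direction and side of the threshold; the 2 others were both DBH, whose call was lost at an adjusted p below 0.01, leaving 0 genes lower in limma (unadjusted p = 0.0020 for DBH), and without replicate 3 of siI1, for a range of 0 to 1 with a library left out. In Hep-G2, 73 of 82 values did so and the other 9 were CHGB, which left 0 genes lower at an adjusted p below 0.01, 0 without the filter, 0 with an FPKM of at least 1 in 3 libraries (where CHGB was not tested), 0 with median centring and 0 to 1 with a library left out. For the difference between lines, a filter of FPKM 1 left 1 gene higher in place of 2, a pseudocount of 1 gave 2 lower in place of 1, and leaving out a library gave 1 to 2.

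Over all tested genes of BE(2)-C, 2489 were higher and 2763 lower, 1139 and 1475 at an adjusted p below 0.01, and 1519 to 2103 were higher with a library left out. At this threshold 2727 in place of 4250 were higher in Hep-G2 and 2172 in place of 3337 for the difference. Equal sums of FPKM moved the median of all genes in Hep-G2 by −0.15, and calls there were 35.4% higher against 48.8% before (69.0% against 54.0% for the difference); DDC then had a log2 fold change of 1.04, GCH1 of −0.26 in place of −0.09 (adjusted p = 0.0684) and MAOA of 0.04 in place of 0.20. A minimum of 10 reads, chosen after seeing the data, gave 2696 higher and 3085 lower of 14475 in BE(2)-C and changed no call of the 10 genes. PDZD8 changed sign with median centring (0.0086) and ranged from −0.072 to 0.0032 with a library left out, and VIM from −0.092 to 0.034. A pseudocount of 1 gave 0.65 for RAB27B, −0.37 for CHAT, −0.72 for INSM1 and 1.07 for FN1. Without the mean-variance trend, the calls of QDPR, ALDH2, SCG3 and ATP6V1F were lost. DBH in Hep-G2 ranged from 0.073 to 0.74, with no call. The causes were not tested.

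The labels do not say whether same-numbered libraries were paired. Over all tested genes their deviations from group means correlated at −0.01 to 0.02 in BE(2)-C and −0.01 to 0.06 in Hep-G2. In both lines only replicate 1 correlated best with its own number. Such correlations cannot exclude a pairing that affects some genes. In BE(2)-C a replicate block lowered the SE of TH from 0.093 to 0.067, of DBH from 0.078 to 0.056 and of CHGA from 0.072 to 0.045. That of SLC18A2 rose from 0.128 to 0.141. With a replicate block, 2141 genes were higher and 2531 lower in BE(2)-C, CHGB in Hep-G2 was no longer called (0 genes lower, adjusted p = 0.0799), nor were SCG3 (0.0575) and CHAT (0.0594) in BE(2)-C, and DBH-AS1 was called lower there (0.0350). Groups of 3 libraries and few reads limit SLC18A2 and MAOA in BE(2)-C and all members but DDC, GCH1 and MAOA in Hep-G2.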
